A study of Homo sapiens with 3 samples.

Results

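The comparison set the library of PANC-1 cells treated with Rg3 directly against the library of PANC-1 cells treated with TAM, without the control library as a reference. A gene was a member when it had 10 or more counts in either of the 2 libraries, and 16493 of the 51136 genes in the count table (32.3%) met that rule. PANC-1 is an established human cell line from a pancreatic ductal carcinoma. Cells grew in DMEM with fetal calf serum, penicillin and streptomycin and received 200 μM ginsenoside Rg3 or 50 μM tamoxifen (TAM) for 24 h, while the control library came from cells given no agent. The doses of the 2 agents differed, and a vehicle is not given in the sources used here. Each condition was 1 library from 1 cell line, and whether a library pooled several cultures is not stated. With 1 library a side no difference has a replicate check, so every test here compares 2 libraries and not 2 treatments. Depth was 12861693 counts in the Rg3 library, 11321442 in the TAM library and 11300766 in the control library.

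Ginsenoside Rg3 is a steroid-like saponin of ginseng, and tamoxifen is a selective modulator of the estrogen receptor. A recurring group is the sterol pathway. Its transcription factors, SREBF1 and SREBF2, are held in the membrane of the endoplasmic reticulum by SCAP and the INSIG proteins while sterol is plentiful. When sterol is scarce they travel to the Golgi, are cut by MBTPS1 and MBTPS2, and their released ends switch on the genes of cholesterol synthesis, of lipoprotein uptake and of fatty acid synthesis.

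After edgeR's TMM scaling, 5078 genes were called higher in the Rg3 library and 4461 were called higher in the TAM library. A gene was called when its ratio passed 1.5-fold and an exact binomial test of its counts (two-sided, Benjamini-Hochberg over the 16493 genes) gave an adjusted p under 0.05. These calls came to 30.8% and 27.0% of the genes compared, so a list with such shares did not stand apart from all genes. The differences moved with the base composition and the length of the transcripts. Across 11986 genes that reached 50 counts in 1 of the libraries, the log2 ratio of Rg3 over TAM fell with GC content (Spearman's rho -0.78) and rose with transcript length (rho 0.38), where genes are not independent replicates and share the same 2 libraries. When these genes were cut into 10 equal classes by GC content, the median of the lowest class was 1.46 on the log2 scale, and 86.7% were called higher with Rg3. In the highest class it was -1.08, and 81.4% were called higher with TAM. For length, the median went from -0.55 in class 2 of 10, counted from the shortest, to 1.16 in the longest.

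**Figure D1:**
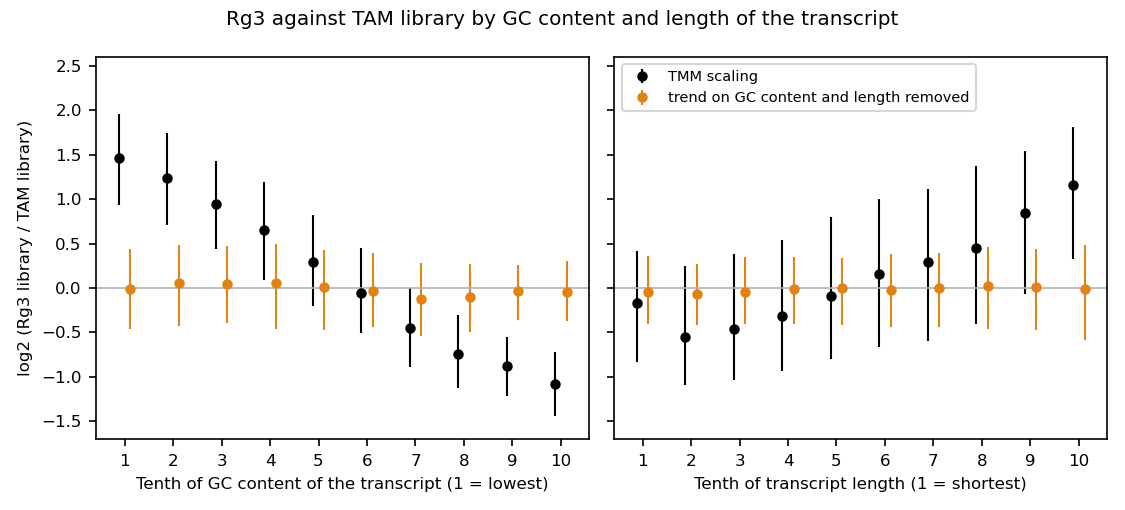
Median log2 ratio of the Rg3 over the TAM library in 10 classes of GC content (left, x axis from lowest to highest) and of length (right, from shortest to longest) of the longest annotated transcript, over 11986 genes. Bars span the quartiles of the genes. Black points (TMM scaling) go from 1.46 to -1.08 over the classes of GC content, and orange points (trend removed) lie between -0.12 and 0.06.

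Each difference is therefore given in 2 forms, as the log2 ratio after TMM scaling and as the log2 ratio relative to genes of the same GC content and length. The latter has a smooth trend on both properties removed and could be had for 14777 of the genes. It left rho at -0.05 with GC content and 0.01 with length, and the spread of the ratios between quartiles went from 1.72 to 0.82 on the log2 scale. In this form 2148 genes were called higher with Rg3 and 2533 were called higher with TAM, or 14.5% and 17.1% of the genes. Of the genes called higher with Rg3 before, 1564 (32.9%) were still called so, 158 were called higher with TAM and 3039 were called in neither direction, while 317 had no such value. Of those called higher with TAM, 1463 (35.9%) were still called so, 7 were called higher with Rg3 and 2611 were called in neither direction, while 380 had no such value. Scaling to library totals instead moved every log2 ratio up by 0.35 and gave 6734 genes higher with Rg3 and 2718 higher with TAM, that is 71.2% of the calls in place of 53.2%. The ratio relative to genes of the same GC content and length does not depend on that choice, since the removed trend contains it. The number of calls also rests on reads varying by counting error alone. With an assumed coefficient of variation of 0.2 between replicate libraries, edgeR's exact test called 2939 and 2156 genes, and with 0.4 it called none in either direction (1241 and 515 at an unadjusted p under 0.05). Intervals are exact 95% Clopper-Pearson intervals and cover counting error only.

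Cholesterol synthesis and fatty acid synthesis had the highest medians of 32 gene lists once the trend was removed. Of the 20 enzymes of cholesterol synthesis, each of which was compared, 18 were called higher in the Rg3 library and 1 was called lower, with a median log2 ratio of 1.10. Relative to genes of the same GC content and length, 18 were called higher with Rg3 and none lower, with a median of 1.66 (all genes, -0.01), and 17 were called higher in both forms. HSD17B7, a sterol reductase named after its values were seen, was called before removal alone (1.24, then 0.40). To show what these genes have at their start sites, the 250 bases before the start of transcription of HMGCS1, INSIG1 and STARD4 are given from RefSeq (GRCh38.p14), 5′ to 3′ on the strand of the gene. They lie at chr5:43313413-43313662 (minus strand), chr7:155297628-155297877 (plus strand) and chr5:111512536-111512785 (minus strand). Capitals mark matches, on either strand, to CCAAT, the box bound by NF-Y, and to CACNCCAC, the core of a sterol element, and the matches of the 2 motifs do not overlap.
HMGCS1: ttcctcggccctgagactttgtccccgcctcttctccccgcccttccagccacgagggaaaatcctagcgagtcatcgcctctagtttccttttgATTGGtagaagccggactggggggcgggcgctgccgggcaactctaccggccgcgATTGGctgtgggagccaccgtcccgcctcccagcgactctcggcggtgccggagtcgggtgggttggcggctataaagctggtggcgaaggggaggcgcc
INSIG1: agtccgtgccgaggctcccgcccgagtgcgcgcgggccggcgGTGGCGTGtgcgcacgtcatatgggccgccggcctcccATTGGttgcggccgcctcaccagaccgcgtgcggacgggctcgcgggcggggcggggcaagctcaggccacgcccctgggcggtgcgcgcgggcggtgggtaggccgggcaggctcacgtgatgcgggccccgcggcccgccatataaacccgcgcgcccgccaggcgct
STARD4: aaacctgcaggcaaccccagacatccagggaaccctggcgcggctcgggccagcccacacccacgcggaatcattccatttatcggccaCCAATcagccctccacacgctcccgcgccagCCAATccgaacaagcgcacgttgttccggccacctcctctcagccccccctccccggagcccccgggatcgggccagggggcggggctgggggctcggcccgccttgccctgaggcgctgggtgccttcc

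In windows of 300 bases around the start, CCAAT stood in 12 of the 15 promoters found for the cholesterol list (80.0%), in 4 of 9 for the SREBP list and in 11 of 19 for the fatty acid list. Of all 27305 promoters, 35.7% held it. CACNCCAC stood in 1 of 15, 2 of 9 and 2 of 19, beside 5.74% of all promoters. A longer form, TCACNCCAC, was searched first and stood in 0 of 15, 1 of 9 and 0 of 19, beside 1.15% of all promoters. These motifs were chosen with the differences known, and a match describes the letters and not a bound site.

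Among the enzymes, HMGCS1, which makes the precursor of mevalonate, had 3776 counts in the Rg3 library, 164 in the TAM library and 291 in the control library. The 2 treated libraries thus differed 15.9-fold, a log2 ratio of 3.99 (95% interval 3.77 to 4.23), or 2.93 (2.70 to 3.16) relative to genes of the same GC content and length. MSMO1, which removes methyl groups from lanosterol derivatives, had 1970, 120 and 122 counts in the same order, a ratio of 3.50 (3.24 to 3.78) and 2.52 after removal of the trend. IDI1, the isomerase of isoprenoid building blocks, had 3595, 237 and 333 counts (3.39 and 2.43). SC5D, a late desaturase, had 1615, 161 and 176 counts (2.79 and 1.81). In all 4 the Rg3 library stood far above the other 2 libraries. CYP51A1, the lanosterol demethylase, differed by 2.53 (1.65 after removal), with the limit that 88.9% of its 50-base stretches recur in another annotated gene. PMVK, the kinase of phosphomevalonate, was the member called higher in the TAM library, with 1442 counts with Rg3 and 2241 with TAM (-1.17), and it was not called after removal (-0.19). TM7SF2, a sterol reductase, had 701 and 580 counts, a ratio of -0.26 that passed no call, and it was called higher with Rg3 relative to genes of its GC content and length (0.89).

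**Figure D2:**
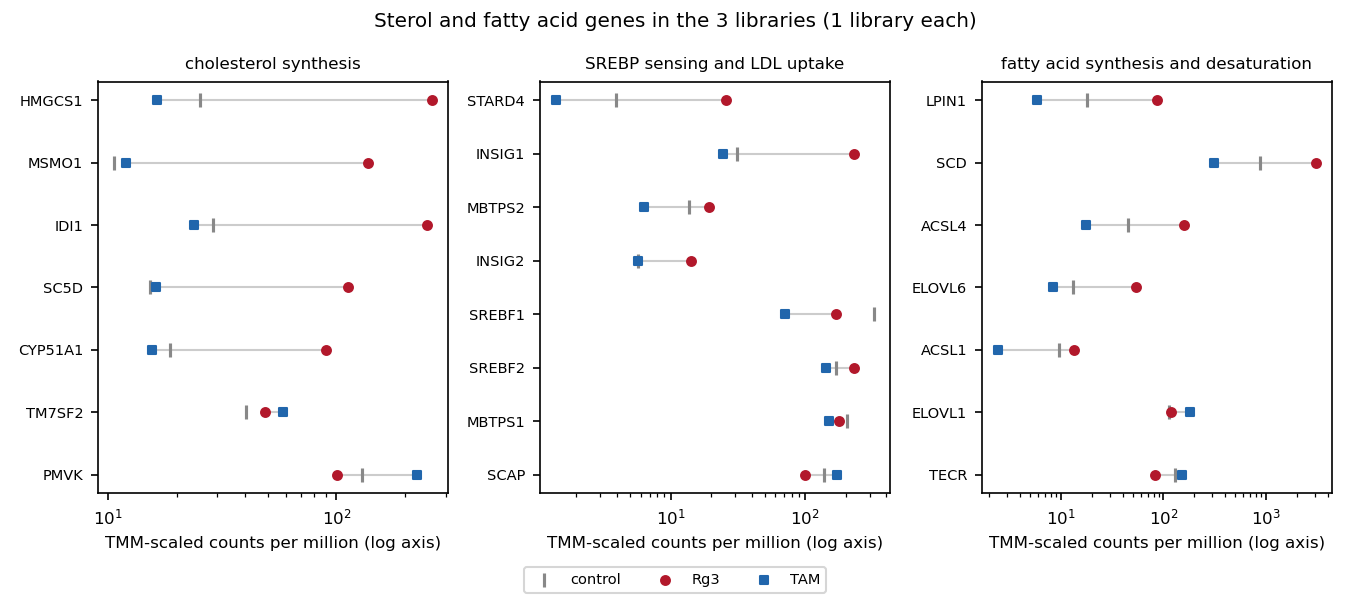
TMM-scaled CPM (log x axis) of the members of 3 lists described in the text, in the control (grey bar), Rg3 (red circle) and TAM (blue square) libraries, 1 library each, ordered by the Rg3 to TAM difference. In the cholesterol panel the Rg3 library lies right of the TAM library for all members shown except TM7SF2 and PMVK.

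Of the 12 genes of SREBP sensing and lipoprotein uptake, 11 were compared, 7 were called higher with Rg3 and 1 was called higher with TAM (median 1.27). After removal of the trend 5 were called higher with Rg3 and none with TAM (median 0.29). Ranked by the ratio before removal, STARD4, a carrier of sterol between membranes, led the genes of 100 or more counts called higher with Rg3 in both forms. It had 371 counts against 14 in the TAM library and 45 in the control library. Its ratio was 18.3-fold, or 4.20 on the log2 scale (3.43 to 5.08), and 2.56 (1.80 to 3.45) after removal. It did not lead after removal, where LPIN1 (3.35) and HMGCS1 (2.93), among others, had larger ratios. INSIG1, a sterol-regulated brake on the pathway, had 3291, 244 and 355 counts (3.22 and 2.88), again with the Rg3 library alone high. The transcription factors differed less. SREBF1 had 2444 counts with Rg3, 701 with TAM and 3722 in the control library, so both treated libraries lay below it, and the ratio of the 2 was 1.27 (1.15 to 1.39) and 2.15 after removal. SREBF2 had 3296, 1417 and 1941 counts (0.68 and 1.11), with the Rg3 library the highest of the 3 and the TAM library the lowest. MBTPS2 and INSIG2 were called higher with Rg3 only before removal (1.62 and 1.31, then 0.10 and -0.03), and SCAP, called higher with TAM before (-0.79), was at 0.08 after it.

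Fatty acid synthesis, a list that also holds genes of fatty acid activation and glycerolipid assembly (ACSL1, ACSL3, ACSL4, GPAM and LPIN1), showed the same direction. Of its 20 genes, 16 were called higher with Rg3 and 2 with TAM (median 1.93), and 15 and 1 after removal (median 1.31). SCD, which desaturates stearate, took 44377 counts in the Rg3 library, 3112 in the TAM library and 10093 in the control library, a 9.86-fold difference (3.30, 3.25 to 3.35) that was 2.76 after removal. The control library lay between the 2. LPIN1, a phosphatidate phosphatase, had 1246, 58 and 205 counts (3.89, and 3.35 after removal). ACSL4 and ACSL1, which attach coenzyme A to fatty acids, differed by 3.20 and 2.49 (1.67 and 1.87 after removal), and ELOVL6, an elongase, by 2.67 (1.35). TECR, the last enzyme of the elongation cycle, was the exception, with 1191 counts with Rg3 and 1495 with TAM (-0.86, and -0.87 after removal, but 0.19 with the mean GC content and length of its transcripts in place of those of the longest). ELOVL1 was called higher with TAM before removal (-0.62) and not after it (0.13). Exons of HMGCS1, IDI1, CYP51A1, SREBF1, SREBF2, STARD4, LPIN1 and TECR overlap another annotated gene on the opposite strand, and the use of strand in counting is not stated.

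The neighbouring groups of sterol handling differed less. Of 11 compared genes of cholesterol efflux and endosomal export, 5 were called higher with Rg3 and 4 with TAM, and 3 and 0 after removal, with a median that went from 0.47 to -0.05. NPC1, which exports cholesterol from late endosomes, had 1112 and 388 counts in the Rg3 and TAM libraries (0.99, and 0.85 after removal), and OSBP, a sterol exchanger at the Golgi, had 950 and 286 (2.30-fold, and a log2 ratio of 0.95 after removal). ABCA1, the efflux pump, had 10 counts with Rg3, 5 with TAM and 60 in the control library. The 2 treated libraries were both low for it, and the interval of their ratio, -1.22 to 2.37, shows that this depth could not tell them apart. Of 28 lysosomal genes, 7 were called higher with Rg3 and 12 with TAM, and 5 and 4 after removal (medians -0.31 and 0.12, the former above 0 with library totals). GNPTAB, which tags enzymes for the lysosome, was higher with Rg3 in both forms (1.96 and 0.91), and TFEB, a transcription factor of lysosomal genes, was higher with TAM in both (-1.71 and -0.87).

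Genes of large cytoplasmic and membrane traffic proteins had the highest median before removal of the trend. Of 18 such genes, 17 were called higher with Rg3 and none with TAM (median 2.25). These transcripts are long and poor in GC, with medians of 14688 bases and 42.4%, and relative to genes of the same kind 12 were called higher with Rg3 and none with TAM (median 0.79). The list was chosen with earlier results of these data known. Its members PIK3C2A, VPS13C and VPS13A are among the 12 largest differences higher with Rg3 before removal, so its rank rests in part on that choice. PIK3C2A, a lipid kinase of endocytosis, had 516 counts with Rg3, 22 with TAM and 198 in the control library (4.02, and 2.30 after removal). VPS13C and VPS13A, which bridge membranes and move lipids, had 534 and 306 counts with Rg3 against 27 and 18 with TAM (3.77 and 3.55, then 1.90 and 1.66). The control library had 207 and 120 counts of them, between the 2 treated libraries. GOLGA4 and GOLGB1, tethers of the Golgi, differed by 3.01 and 2.86 (1.47 and 1.46 after removal). Outside this list the same direction was shown by DENND4A, an activator of Rab proteins, with 227 and 12 counts (3.71 and 2.06), and ATG2B, a lipid mover of autophagy, with 105 and 6 (3.60 and 2.29). ESCO1, an acetylase of cohesin, had 200 and 13 counts (3.41 and 1.91), and FGD6, an activator of CDC42, had 257 and 17 (3.39 and 1.85). Exons of VPS13C, VPS13A, GOLGA4, DENND4A and ATG2B overlap another gene on the opposite strand.

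**Figure D3:**
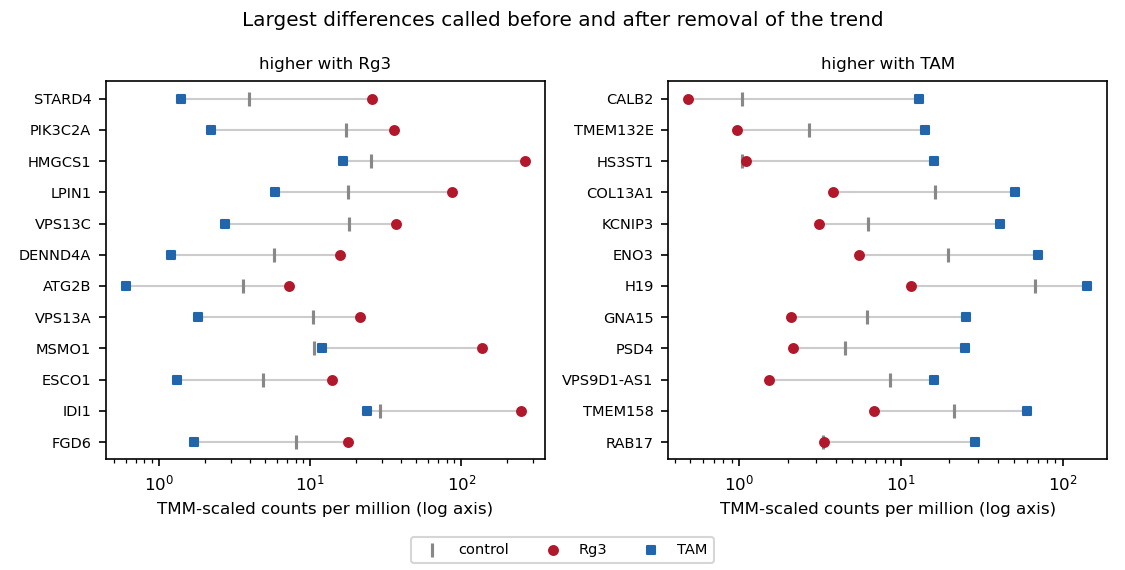
TMM-scaled CPM (log x axis) in the control (grey bar), Rg3 (red circle) and TAM (blue square) libraries of 12 genes per direction. These had the largest differences before removal of the trend among genes of 100 or more counts that were called before and after it. MSMO1 in the left panel and HS3ST1 and RAB17 in the right panel have a control library close to 1 of the treated libraries, while for most others the control library lies between them.

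In the other direction the largest differences before removal were in single genes of varied function. CALB2, which encodes the calcium buffer calretinin, had 7 counts with Rg3, 129 with TAM and 12 in the control library, a 26.7-fold difference (-4.74, -6.08 to -3.65, and -4.06 after removal). HS3ST1, a heparan sulfate sulfotransferase, had 16, 159 and 12 counts (-3.85, and -4.62 after removal), and TMEM132E, a membrane protein, had 14, 141 and 31 (-3.87 and -2.98). For these 3 genes the TAM library was the high one. COL13A1, a transmembrane collagen, had 55, 507 and 186 counts (-3.74 and -2.89). KCNIP3, a calcium-binding protein, had 45, 410 and 72 (-3.72 and -2.91), and ENO3, the muscle enolase, had 79, 703 and 225 (-3.69 and -2.86). H19, an imprinted long noncoding RNA, had 166 counts with Rg3, 1410 with TAM and 772 in the control library (-3.62, -3.86 to -3.39, and -2.51 after removal), so the Rg3 library was below the control library and the TAM library above it. GNA15, a G protein subunit, PSD4, an exchange factor for ARF6, RAB17, a Rab protein of epithelial cells, TMEM158 and the antisense RNA VPS9D1-AS1 completed the 12, with ratios from -3.60 to -3.12 and from -3.99 to -1.90 after removal. Before removal RN7SK and MIR4721 also stood among the 5 largest (-4.55 and -3.78), but 100% and 27.5% of their 50-base stretches are shared with another gene. Exons of ENO3, GNA15, PSD4, RAB17, H19 and VPS9D1-AS1 overlap another gene on the opposite strand.

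Secreted signals were split. Of 22 compared chemokines, cytokines and NF-kB feedback genes, 4 were called higher with Rg3 and 9 with TAM, and 6 and 5 after removal (medians -0.60 and -0.01). CCL2, which draws monocytes, had 249 counts with Rg3, 964 with TAM and 135 in the control library, a 5.60-fold difference (-2.49, -2.69 to -2.28) that was -2.94 after removal. CSF1, the macrophage growth factor, had 583, 1852 and 1008 counts (-2.20 and -1.45). CXCL1, which draws neutrophils, had 133, 267 and 128 (-1.54 and -1.73), and NFKBIA, an inhibitor of NF-kB, had 410, 766 and 339 (-1.43 and -0.88). These 4 were higher with TAM in both forms. BIRC3 and TNFAIP3, which are also feedback genes of NF-kB, went the other way, with 508 and 91 counts with Rg3 against 63 and 31 with TAM (2.48 and 1.02, then 0.81 and 0.85). IL6 and CXCL10 had no read in either treated library, which allows up to 3 counts. Among 25 immediate early genes, 3 were called higher with Rg3 and 9 with TAM, and 7 and 7 after removal (medians -0.33 and -0.17, the former above 0 with library totals). JUN, DUSP1 and IER3 were higher with TAM in both forms (-1.64, -1.61 and -1.72, then -0.96, -0.88 and -0.79), and KLF6 and DUSP6 were higher with Rg3 in both (1.40 and 1.09, then 0.80 and 0.63).

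The study reported that Rg3 and TAM each lowered a number of genes tied to angiogenesis, in patterns that differed. The ratios here set the 2 treated libraries against each other without the control library, so they do not test that report. Of 54 angiogenic ligands, receptors and inhibitors, 48 were compared, 9 were called higher with Rg3 and 24 with TAM (median -0.60), and after removal 9 and 13 (median -0.15). Among ligands, ANGPTL4, a secreted regulator of lipid uptake and vessels, had 1480 counts with Rg3, 4954 with TAM and 1367 in the control library (-2.28, -2.36 to -2.19, and -1.14 after removal). PGF, a relative of VEGFA, had 131, 358 and 258 (-1.98 and -1.43). FGF2, a growth factor of endothelial cells, had 172, 29 and 68 counts, a ratio of 2.04 that was 0.40 and not called after removal. EFNB2, a membrane-bound ligand of Eph receptors, had 100, 16 and 65 counts (2.11 and 1.97). Among receptors, NOTCH4 had 24 counts with Rg3 and 95 with TAM (-2.52 and -1.91), ITGAV, an integrin subunit, had 2393 and 352 (2.23 and 0.64), and FGFR2 had 51 and 2, with an interval of 2.21 to 7.22 and of 2.02 to 7.03 after removal. ID3, an inhibitor of basic helix-loop-helix factors, had 2170 counts with Rg3, 6082 with TAM and 3015 in the control library (-2.02 and -1.19). VEGFA itself, the main endothelial growth factor, was chosen after its values were seen and had 857, 991 and 734 counts (-0.74, and -1.18 after removal). Exons of ANGPTL4, VEGFA, EFNB2, FGF2 and ITGAV overlap another gene on the opposite strand.

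Most genes of the joint list of hypoxia targets and glycolytic enzymes were called higher with TAM before removal of the trend, but not after it. Of 33 genes, 5 were called higher with Rg3 and 21 with TAM (median -0.81). After removal 2 and 11 were, and 20 were called in neither direction (median -0.31). Over all genes, 27.0% were called higher with TAM before removal and 17.1% after it. PKM, the pyruvate kinase, took 40676 counts with Rg3, 94185 with TAM and 51981 in the control library (-1.74, and -1.26 after removal), so the TAM library held 3.35 times the scaled level of the Rg3 library. ALDOA differed by -1.24 and -0.62, but 52.3% of its stretches are shared with another gene. PFKL and TPI1 were called before removal alone (-1.22 and -1.19, then -0.43 and -0.31). HIF1A, the oxygen-regulated factor, went the other way with 744 counts with Rg3 and 119 with TAM (2.11 and 0.69), and KDM3A, BNIP3L and EGLN1 were called higher with Rg3 before removal (1.44, 0.99 and 0.76) and not after it (0.11, -0.19 and -0.31).

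**Figure D4:**
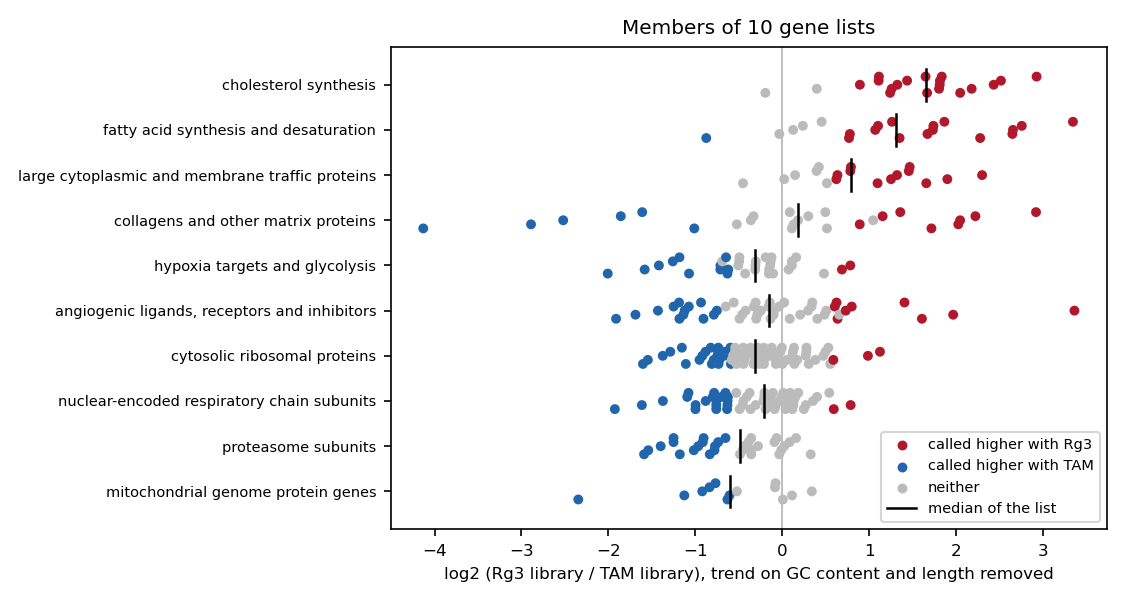
Log2 ratio of the Rg3 over the TAM library relative to genes of the same GC content and length (x axis) for every member of 10 lists with such a value, 1 point a gene. Red points were called higher with Rg3, blue points higher with TAM and grey points in neither direction, and the black bar is the median, which is 1.66 for cholesterol synthesis and -0.61 for the mitochondrial genome.

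Proteasome subunits, cytosolic ribosomal proteins and nuclear-encoded respiratory chain subunits leaned to TAM by their medians. Here the removal of the trend kept the direction of each median. Of 31 proteasome subunits, 3 were called higher with Rg3 and 15 with TAM (median -0.54), and 0 and 15 after removal (median -0.49), where 7 were called higher with TAM in both forms. PSMB5, PSMB6 and PSMB7, of which the first carries the chymotrypsin-like site, had 2951, 4172 and 2782 counts with Rg3 and 6200, 7142 and 4302 with TAM. Their ratios were -1.60, -1.31 and -1.16, and -1.18, -0.74 and -0.97 after removal. Of 74 cytosolic ribosomal proteins, 5 were called higher with Rg3 and 25 with TAM (median -0.45), and 3 and 21 after removal (median -0.31), where 6 were called higher with TAM in both forms. RPS19, RPL8 and RPL18 were called before removal alone (-1.13, -1.11 and -1.10, then -0.33, -0.02 and -0.51), and RPL39 and RPS13 were higher with Rg3 in both (1.06 and 0.77, then 0.99 and 1.13). Of 57 nuclear-encoded subunits of the respiratory chain, 2 were called higher with Rg3 and 21 with TAM, and 2 and 19 after removal (medians -0.41 and -0.21), with 6 higher with TAM in both forms. NDUFS8 and NDUFA3, of complex I, were higher with TAM in both forms (-1.43 and -1.36, then -0.63 and -0.63). Over all genes, 27.0% were called higher with TAM before removal and 17.1% after it, and 1463 of 14777 in both forms. The ribosomal and respiratory counts in both forms were thus near the share of all genes. Library totals moved the medians before removal up by 0.35.

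Of the 13 protein genes of the mitochondrial genome, 1 was called higher with Rg3 and 4 with TAM (median -0.27, above 0 with library totals), and 0 and 7 after removal (median -0.61). ND6, the one such gene on the other strand from the rest, had 104 counts with Rg3, 265 with TAM and 247 in the control library (-1.88, and -2.35 after removal). ND1 had 10966, 14232 and 17857 (-0.91 and -0.92), and COX1 had 52154, 58518 and 83903 (-0.70 and -0.84), so both treated libraries lay below the control library for these 2. Between 17.9% and 49.5% of the stretches of ND6, ND1 and COX1 recur in another annotated gene. Reads of mitochondrial protein genes made up 1.92% of the counts in the Rg3 library, 1.87% in the TAM library and 2.80% in the control library.

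Stress genes showed no common direction. Of 25 compared targets of ATF4 and CHOP, the factors of the integrated stress response, 6 were called higher with Rg3 and 9 with TAM, and 5 and 3 after removal (medians -0.32 and 0.11, the former above 0 with library totals). STC2, a secreted glycoprotein, had 3203 counts with Rg3, 7351 with TAM and 3304 in the control library (-1.73 and -1.74), and DDIT4, an inhibitor of mTOR, had 994, 2468 and 1144 (-1.84 and -0.93). In both genes the TAM library alone was high. ASNS, asparagine synthetase, and ATF3, a stress-induced factor, were higher with Rg3 in both forms (0.81 and 0.89, then 0.70 and 0.77), with 82.0% of the stretches of ASNS shared with another gene. SLC7A11, the cystine importer, had 312 counts with Rg3, 27 with TAM and 43 in the control library (3.00 and 1.13), and SLC6A9, a glycine transporter, had 71, 334 and 143 (-2.77 and -1.88). Of 24 genes of the unfolded protein response, 11 were called higher with Rg3 and 4 with TAM, and 4 and 3 after removal. HSP90B1, a chaperone of the endoplasmic reticulum, had 4987 and 1146 counts (1.59 and 0.70). Of 12 cytosolic heat shock genes, 4 were called higher with Rg3 and 5 with TAM, and 1 and 0 after removal, the 1 being HSP90AA1 with 13669 and 3347 counts (2.82-fold, and a log2 ratio of 0.99 after removal). Of 16 targets of NRF2, 4 and 4 were called before removal and 5 and 0 after it. TXNRD1, thioredoxin reductase, had 4826 and 1224 counts (1.45 and 0.76), and HMOX1, heme oxygenase, had 374 and 391 (-0.60 and 0.32). Exons of DDIT4, SLC7A11, SLC6A9, HSP90B1 and HSP90AA1 overlap another gene on the opposite strand. Among the remaining lists, 20 cytosolic aminoacyl-tRNA synthetases had 9 genes called higher with Rg3 and 4 with TAM, and 2 and 3 after removal. The 13 amino acid transporters compared had 5 and 4, then 2 and 2, and the 4 metallothioneins and zinc exporters had 2 and 2, then 1 and 1. The 14 BCL2 family members had 4 and 6, then 1 and 0, and the 10 xenobiotic response genes had 2 and 2, then 1 and 4.

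**Figure D5:**
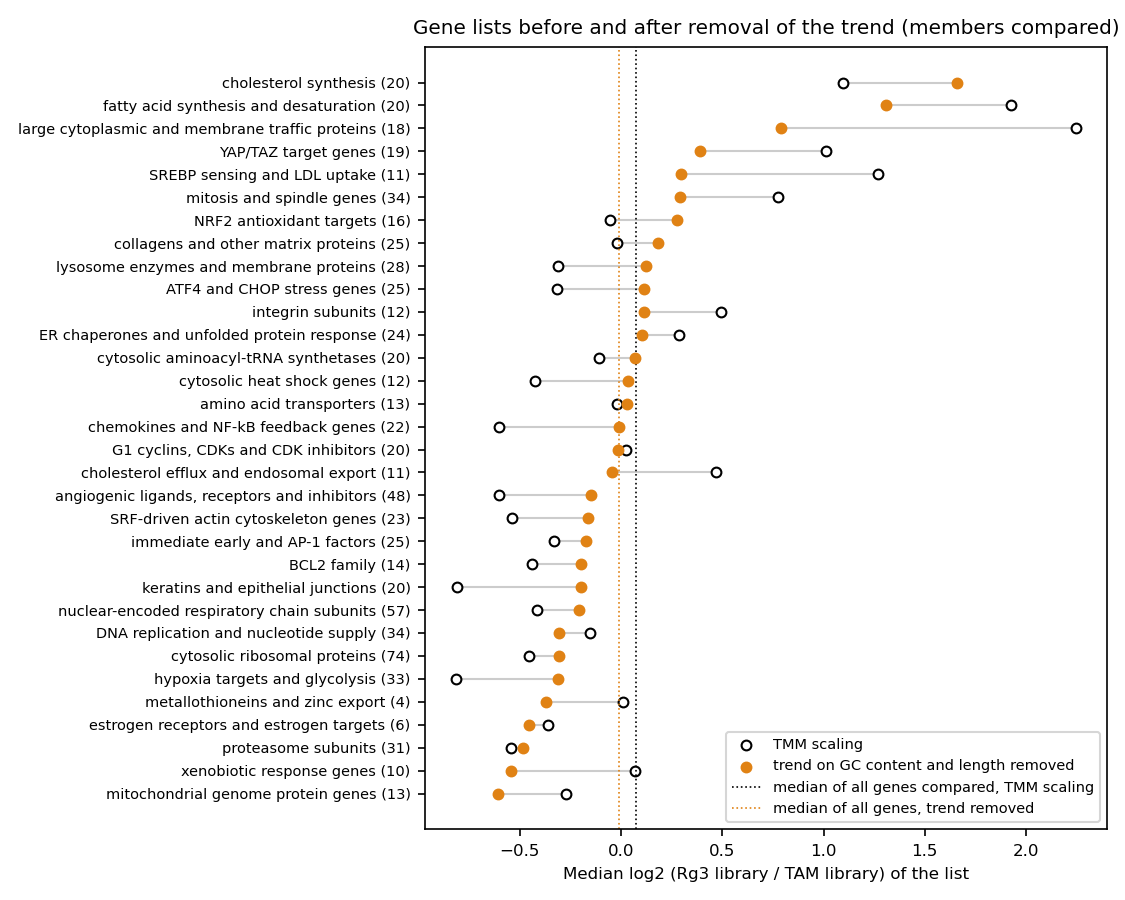
Median log2 ratio of the Rg3 over the TAM library of 32 gene lists, ordered by the value after removal of the trend (members compared in parentheses). Open circles give TMM scaling, filled circles the value relative to genes of the same GC content and length, and dotted lines the medians of all genes. After removal of the trend cholesterol synthesis (1.66) and fatty acid synthesis (1.31) lie farthest right, while with TMM scaling the large traffic proteins do (2.25).

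Among cell cycle genes, the mitotic ones leaned to Rg3. Of 34 genes of mitosis and the spindle, 19 were called higher with Rg3 and 5 with TAM (median 0.78), and 9 and 4 after removal (median 0.29). ASPM, KIF11 and CENPF, proteins of the spindle and the kinetochore, had 472, 1379 and 2208 counts with Rg3 and 50, 187 and 310 with TAM (2.71, 2.35 and 2.30, then 0.94, 0.94 and 0.83). PLK1, a mitotic kinase, and UBE2C, an enzyme of the anaphase-promoting complex, were higher with TAM in both forms (-1.25 and -1.11, then -0.62 and -0.91). Of 34 genes of DNA replication and nucleotide supply, 5 were called higher with Rg3 and 12 with TAM (median -0.15, above 0 with library totals), and 0 and 6 after removal (median -0.30). MCM5, a subunit of the replicative helicase, had 1769 counts with Rg3, 3612 with TAM and 3029 in the control library (2.95-fold higher with TAM, and called so after removal), and LIG1, the ligase of Okazaki fragments, had 529, 997 and 1074 (-1.45 and -0.86). Of 20 cyclins, CDKs and CDK inhibitors of G1, 6 were called higher with Rg3 and 8 with TAM, and 5 and 3 after removal.

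Of 25 compared collagens and other matrix proteins, 10 were called higher with Rg3 and 9 with TAM (median -0.02, above 0 with library totals), and 8 and 6 after removal (median 0.18). LAMB1, a laminin chain, had 1125 counts with Rg3, 244 with TAM and 849 in the control library (1.67 and 1.36), COL5A1 had 392, 97 and 658 (1.48 and 1.72), and COL6A2 had 144, 53 and 162 (0.91 and 2.03). For these 3 genes the TAM library was the lowest of the 3. On the other side, LAMB3, a laminin chain of epithelia, had 37, 152 and 62 counts (-2.57 and -1.86), and COL7A1, the anchoring fibril collagen, had 178, 525 and 389 (-2.09 and -1.61), beside COL13A1. Of 20 genes of YAP and TAZ, a list of targets that also holds the factors YAP1, WWTR1 and TEAD1, 19 were compared. Of these, 11 were called higher with Rg3 and 2 with TAM (median 1.01), and 6 and 1 after removal (median 0.39). TEAD1, the DNA-binding partner of YAP, had 1133 and 162 counts (2.27 and 0.86). The targets FJX1 and AXL were called higher with TAM before removal (-1.55 and -0.76) and not after it (-0.44 and -0.47). Of 23 genes of the actin cytoskeleton, 3 were called higher with Rg3 and 9 with TAM, and 3 and 4 after removal, with FLNA, filamin A, at 12058 and 22332 counts (-1.42 and -1.05) and CNN3, a calponin, at 641 and 157 (2.82-fold, and a log2 ratio of 1.25 after removal). Of 12 integrin subunits compared, 5 were called higher with Rg3 and 3 with TAM, and 2 and 2 after removal.

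Keratins and junction genes bear on the epithelial identity of the cells, but their list also holds CDH2 and VIM, which mark mesenchymal cells. Of 20 compared, 5 were called higher with Rg3 and 12 with TAM (median -0.81), and 4 and 7 after removal (median -0.20). CDH2, with 784 counts with Rg3 and 308 with TAM, was called higher with Rg3 before removal alone (0.82, then 0.14). KRT8 and KRT18, the simple keratins, had 7817 and 7406 counts with Rg3, 14411 and 13162 with TAM, and 15329 and 11216 in the control library. Their ratios were -1.42 and -1.36 (-0.69 and -0.60 after removal), with 22.1% and 21.7% of their stretches shared with other genes and exons that overlap on opposite strands. KRT7, a ductal keratin, had 93, 345 and 248 counts (-2.42 and -1.30). KRT19, also a ductal keratin, went the other way, with 290, 181 and 665 counts, a ratio of 0.15 that passed no call and of 1.23, called higher with Rg3, after removal. DSP, desmoplakin, and TJP1, a tight junction scaffold, were higher with Rg3 in both forms (2.43 and 1.93, then 1.56 and 0.88). KRT8 and KRT18 were plentiful in all 3 libraries, while EPCAM had 26 counts with Rg3 and 8 with TAM, and the 7 acinar and islet markers had no read. Of the 5 endothelial, 5 fibroblast and 5 leukocyte markers, 4, 3 and 4 had under 10 counts in both treated libraries. The exceptions were KDR, COL1A1, COL3A1 and CD68, and CD68 shares 92.6% of its stretches with another gene. Summed over each list, the endothelial markers had 57 and 55, the fibroblast markers 1100 and 864 and the leukocyte markers 427 and 1101 counts in the Rg3 and TAM libraries. Their part in the differences was not tested.

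The estrogen receptor, the best known target of tamoxifen, gave little to compare. ESR1 and PGR had no read in any library, and of 12 receptors and targets 6 were compared. Of these, 1 was called higher with Rg3 and 2 with TAM, and 0 and 3 after removal. NRIP1 had 75 counts with Rg3 and 15 with TAM and was called higher with Rg3 before removal alone (1.79, then 0.21). XBP1 was called higher with TAM after removal alone (-0.40, then -1.08). GPER1, a membrane receptor for estrogen, had 13 counts with Rg3, 86 with TAM and 16 in the control library (-3.26, -4.22 to -2.41, and -2.30 after removal). IGFBP4, a binding protein of insulin-like growth factors, had 3431, 13649 and 11728 counts (-2.52 and -1.44). The TAM library was the high one for GPER1, and the Rg3 library was the low one for IGFBP4. CCND1 and MYC differed by under 1.5-fold in both forms (0.18 and -0.33, then 0.17 and 0.28).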

How the data were processed

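Total RNA from PANC-1 cells, 1 library per condition, was sequenced on an Ion Proton instrument. The authors deposited whole-number read counts per gene, not normalized. Their methods name FAST-QC, TopHat and MAQ, and the submitters' processing notes name GRCh38. The counting tool, the annotation and the use of strand are not given in the sources used here. Beside the genes listed above, exons of ALDOA, BNIP3L, CCND1, CD68, DUSP6, FLNA, GNPTAB, HIF1A and IER3 overlap another annotated gene on the opposite strand. Those of KRT7, LAMB1, LIG1, NDUFA3, NPC1, PLK1, RPL18, TNFAIP3 and TPI1 do so too. The authors' limma criteria need replicates and were not used.

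From the counts, genes with 10 or more counts in the Rg3 or the TAM library were kept, and library sizes were scaled by TMM over the 3 libraries (edgeR 4.0.16, R 4.3.3). Each gene was tested by an exact two-sided binomial test on its reads (scipy 1.17.1), adjusted by Benjamini-Hochberg, and called at an adjusted p under 0.05 and a difference over 1.5-fold. Counts under 3 were raised to 3 for the ratio. GC content and length came from the longest transcript of GENCODE 29, matched by symbol. The trend was fitted by loess (span 0.3) on genes with at least 50 counts and subtracted. Stretches of 50 bases were compared between annotated genes to find shared sequence. The steps were tested on simulated data. Alternatives were library totals, DESeq2 1.42.0 size factors, other count minimums, a 2-fold threshold, edgeR's exact test with assumed variation and other trend terms. The trend on mean GC content and length of the transcripts was chosen after seeing the data.

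The genes named were the 12 largest differences per direction, ranked before removal, with at least 100 counts and called in both forms. Genes with over 20% shared sequence were left out of these. The others were the 5 largest per direction before removal, up to 8 members per list and the cell type markers. The comparison and the lists were chosen with earlier results of these data known. Some members of the lists are not reported here by name.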

Additional observations from a re-analysis of the deposited data

How the results depend on the processing

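No paired analysis was possible because Rg3 and TAM had 1 library each, and no replicate could be left out. The counts of genes higher with Rg3 and with TAM, 5078 and 4461, became 2540 and 2636 with the trend on GC content removed, 2148 and 2533 with GC content and length, and 2230 and 2369 with the mean values of the transcripts, an alternative chosen after seeing the data. Library totals gave 6734 and 2718, and a 2-fold threshold 3676 and 2633. With an assumed variation of 0.2 the counts were 2939 and 2156, and with 0.4 both were 0. The median log2 ratio of cholesterol synthesis was 1.45 with library totals, 1.55 with the GC trend removed, 1.29 with the length trend, 1.66 with both and 1.35 with transcript means. That of fatty acid synthesis was 2.28 with library totals, 1.55 with the length trend removed, 1.31 with both and 1.52 with transcript means. That of large traffic proteins was 1.53, 1.10, 0.79 and 0.85 with the trend on GC, length, both and transcript means removed. That of proteasome subunits was -0.19 with library totals and -0.62, -0.35 and -0.49 with the trend on GC, length and both removed. Library totals turned TM7SF2 (0.09), MYC (0.02) and COL1A1 (0.27), none of them called, and the medians of the lysosome, immediate early, mitochondrial genome, ATF4, NRF2, replication, matrix, aminoacyl-tRNA synthetase and amino acid transporter lists, all to above 0. With a trend removed, and in the order GC, both and transcript means, INSIG2 went to -0.19, -0.032 and -0.050, ELOVL1 to 0.017, 0.13 and 0.068, HMOX1 to 0.20, 0.32 and 0.44, TM7SF2 to 0.80, 0.89 and 0.88, COL1A1 to 0.86, 0.50 and 0.91, and MYC to 0.18, 0.28 and 0.48. BNIP3L (-0.31 and -0.19) and SCAP (0.20 and 0.083) turned with GC and with both. EGLN1 was at -0.073 with length, -0.31 with both and -0.81 with transcript means. TECR was at 0.19 with transcript means, and the median of the chemokine list at 0.0097 with GC and 0.15 with transcript means. Of 132 genes followed, 123 lost their call with an assumed variation of 0.4, and the other 9 had no call to lose. With 0.2, 18 lost their call, and DESeq2 size factors changed none. With the trend on GC, both and transcript means removed, 16, 10 and 21 lost it in the same direction. In each case 7 turned, with a call in at least 1 of the 2 forms. These counts cannot show how well calls hold, because the largest differences per direction were named for being called in both forms. Over all genes with such a value, 32.9% of the calls higher with Rg3 and 35.9% of those higher with TAM were kept with both removed. Apart from the trend terms, the causes of the shifts between settings were not tested. Intervals cover counting error only.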

Other observations

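Long noncoding RNAs leaned to the TAM library in counts and medians. Protein-coding genes did not before removal of the trend, and did so less after it. The difference was not tested. Of 132 lincRNAs compared, 13 were called higher with Rg3 and 45 with TAM (median log2 ratio -0.38), and 11 and 45 relative to genes of the same GC content and length (median -0.49). Of 185 antisense RNAs, 15 were called higher with Rg3 and 67 with TAM, and 12 and 54 after removal of the trend (medians -0.45 and -0.41). Of 12395 protein-coding genes, 4329 were called higher with Rg3 and 3601 with TAM, and 1820 and 2229 after removal (medians 0.10 and -0.02). The use of strand in counting is not given in the sources used here, so reads of an antisense RNA and of its partner may not be told apart.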
